A study of Mus musculus with 21 samples.

Results

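Nr4a1, Nr4a2 and Nr4a3 encode the NR4A orphan nuclear receptors, also known as Nur77, Nurr1 and Nor1. They were taken by symbol from a table of bromouridine-sequencing (BrU-seq) counts over whole genes and are 3 of the 24984 genes listed there. All 3 were among the 16959 genes that passed the filter on low counts. BrU-seq isolates RNA that took up bromouridine during a short pulse, so a count stands for RNA made in that window rather than for all RNA of a gene. The cells were primary cortical cultures of CD1 mice at 17 days in vitro, which received DMSO or 25 µM MM401, a compound that blocks binding of the H3K4 methyltransferase MLL1 to WDR5, for 30 min. Bicuculline-methiodide at 40 µM, a blocker of GABA-A receptors that raises network activity, or sterile water then followed for 1 h or 4 h, with 2 mM bromouridine present in the last 30 min. The 7 groups were DMSO with water for 4 h, DMSO with bicuculline for 1 h and for 4 h, and MM401 with water or bicuculline for 1 h and for 4 h. A group of DMSO with water for 1 h was not analysed here, so both DMSO bicuculline groups were set against water at 4 h. Each group had 3 libraries, described as biological replicates of mixed sex. The third library of MM401 with water for 4 h held 316741 counts, 0.503% of the median of the others, and was left out, which leaves 20 libraries and 2 in that group.

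The total count of those 20 libraries ran from 49886348 to 87939384, with 18840 to 19277 genes detected, and replicate pairs differed by more than sampling noise. Neuron markers (8 genes, levels summed as CPM per kilobase, where CPM is counts of a gene per 1000000 counts of its library after TMM scaling) lay between 28.4 and 51.6 in the 20 libraries. Astrocyte markers (6 genes) lay between 13.5 and 26.5, oligodendrocyte lineage markers (6 genes) between 8.25 and 16.1, and microglia markers (6 genes, 5 of them tested) between 1.86 and 3.34. Endothelial markers (4 genes, 3 tested) lay between 0.0257 and 0.0627. By the levels of the astrocyte, oligodendrocyte lineage and microglia markers, the cultures labelled as neurons also held glial RNA. No marker was at 0 throughout, the endothelial ones included, so detection alone does not show a cell type. In these bulk samples fewer cells of a type and less RNA per cell cannot be told apart.

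The NR4A proteins are transcription factors that act without a known natural ligand, so their activity follows largely from how much of them is made. Their genes belong to the early genes that neurons transcribe within minutes of depolarisation, downstream of calcium entry and of CREB bound to cAMP response elements (CRE) in their promoters. NR4A proteins bind an NBRE sequence as monomers, and NR4A1 and NR4A2 also pair with retinoid X receptors. In neurons they are known for roles in memory, in spine density and, for NR4A2, in dopamine neurons.

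The promoters are shown because each carries 4 copies of the short CRE motif TGACG, counted on both strands. RefSeq sequences of assembly GRCm38.p6 (mm10) matched all 3 genes, in windows of 250 bases before to 50 bases after the start site. The 250 bases before the start that these sequences use are printed 5′ to 3′ in the direction of the gene, with TGACG and its reverse complement CGTCA in capitals. They lie at chr15:101266596-101266845 on the plus strand for Nr4a1, chr2:57124004-57124253 on the minus strand for Nr4a2 and chr4:48045055-48045304 on the plus strand for Nr4a3.
Nr4a1: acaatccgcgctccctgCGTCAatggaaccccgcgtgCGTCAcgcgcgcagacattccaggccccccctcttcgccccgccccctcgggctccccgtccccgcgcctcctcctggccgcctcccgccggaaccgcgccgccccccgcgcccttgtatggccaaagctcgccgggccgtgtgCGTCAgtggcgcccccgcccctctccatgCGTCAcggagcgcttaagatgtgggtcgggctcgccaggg
Nr4a2: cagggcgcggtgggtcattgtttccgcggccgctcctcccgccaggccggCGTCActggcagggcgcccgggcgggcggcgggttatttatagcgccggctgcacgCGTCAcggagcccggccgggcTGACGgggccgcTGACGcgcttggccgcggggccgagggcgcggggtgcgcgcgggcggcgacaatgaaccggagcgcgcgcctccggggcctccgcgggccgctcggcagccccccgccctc
Nr4a3: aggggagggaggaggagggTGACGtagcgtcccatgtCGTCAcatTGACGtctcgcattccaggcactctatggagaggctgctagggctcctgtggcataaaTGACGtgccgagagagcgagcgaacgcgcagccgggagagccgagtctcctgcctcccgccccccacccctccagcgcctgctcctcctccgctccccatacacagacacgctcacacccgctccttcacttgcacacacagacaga
All 4 copies of each gene lie in the printed part. Of 32851 promoter windows, 20.8% held at least 1 copy and 76 windows from 69 genes (0.231%) held 4 or more. Among the 6218 windows at least as rich in G and C as the poorest of the members (64.7%), 0.563% held 4 or more.

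The copies were placed differently in each promoter. In Nr4a1 all 4 read CGTCA, beginning 233, 213, 69 and 40 bases before the start. In Nr4a2 the pair at 200 and 144 bases read CGTCA and the pair at 123 and 111 bases read TGACG. In Nr4a3 the copies began 231, 213, 205 and 147 bases before the start, so 3 of them sat within one short stretch. None of the 3 windows held the palindromic CRE TGACGTCA (1.79% of all windows did), the AP-1 site TGANTCA (7.81%), the NBRE AAAGGTCA (1.51%) or a CArG box (1.63%). Nr4a2 held a TATA box, TATAAA (13.6%), on the minus strand 164 bases before the start, and a MEF2 site (3.19%) that overlaps it. The GC box GGGCGG (35.7%) occurred 3 times in Nr4a1, 5 times in Nr4a2 (1 of them after the start, outside the printed part) and 1 time in Nr4a3. The windows were 72.3%, 81.7% and 64.7% G and C, against a median of 52.7% over all windows. A match describes letters and not bound protein, and the counts in this study do not bear on binding.

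In the count table Nr4a1 spans chr15:101266845-101274794 on the plus strand (7950 bases), Nr4a2 chr2:57107225-57124003 on the minus strand (16779 bases) and Nr4a3 chr4:48045304-48086446 on the plus strand (41143 bases), in mm10. No other gene of the count table with a single position overlapped them. RefSeq places LOC105244150 over 670 bases of Nr4a2, and whether reads were counted by strand is not given in the sources used here. RefSeq also begins Nr4a1 further upstream, at 101253902, and Nr4a3 at 48045078, inside the printed stretch. The count table starts Nr4a1 and Nr4a3 1 base before the start of the promoter sequences, at the last printed base, and the distances of the copies are from the latter. By the RefSeq gene starts all 4 copies of TGACG in Nr4a1 and 3 of the 4 in Nr4a3 lie inside the gene, and the last base of the other copy of Nr4a3 is the start itself.

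Levels are given in CPM. Nr4a1 stood at 29.9, 27.6 and 30.5 CPM in the DMSO cultures with water, at 241, 252 and 256 CPM after 1 h of bicuculline, and at 111, 106 and 103 CPM after 4 h. Under MM401 it stood at 33.0, 28.1 and 36.6 CPM with water for 1 h and at 25.9 and 33.8 CPM with water for 4 h. The MM401 cultures had 271, 242 and 241 CPM after 1 h of bicuculline and 124, 109 and 107 CPM after 4 h. Every library with bicuculline for 1 h was thus above every library with bicuculline for 4 h, and those above every library with water.

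Nr4a2 was the least counted member. It stood at 10.04, 9.10 and 10.2 CPM in DMSO with water, at 67.9, 68.5 and 78.5 CPM after 1 h of bicuculline and at 42.4, 43.1 and 37.3 CPM after 4 h. Under MM401 it stood at 8.91, 7.997 and 9.71 CPM with water for 1 h, and at 8.79 and 8.61 CPM with water for 4 h. After bicuculline under MM401 it stood at 99.6, 93.3 and 72.6 CPM at 1 h and at 43.8, 40.5 and 28.2 CPM at 4 h. The 3 tiers did not overlap here either, but the MM401 libraries spread widely: the coefficient of variation was 16.0% at 1 h and 21.9% at 4 h of bicuculline, against 8.32% and 7.72% in DMSO.

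Nr4a3 gave the most reads. It stood at 101, 96.8 and 96.7 CPM in DMSO with water, at 1037, 1115 and 1239.7 CPM after 1 h of bicuculline and at 451, 446 and 423 CPM after 4 h. Under MM401 the water libraries had 94.8, 93.9 and 107 CPM at 1 h and 94.4 and 111 CPM at 4 h. The MM401 bicuculline libraries had 1317, 1346.5 and 1034 CPM at 1 h and 402, 433 and 407 CPM at 4 h. The order of the tiers was again bicuculline for 1 h, bicuculline for 4 h and water, with no overlap between tiers.

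**Figure D1:**
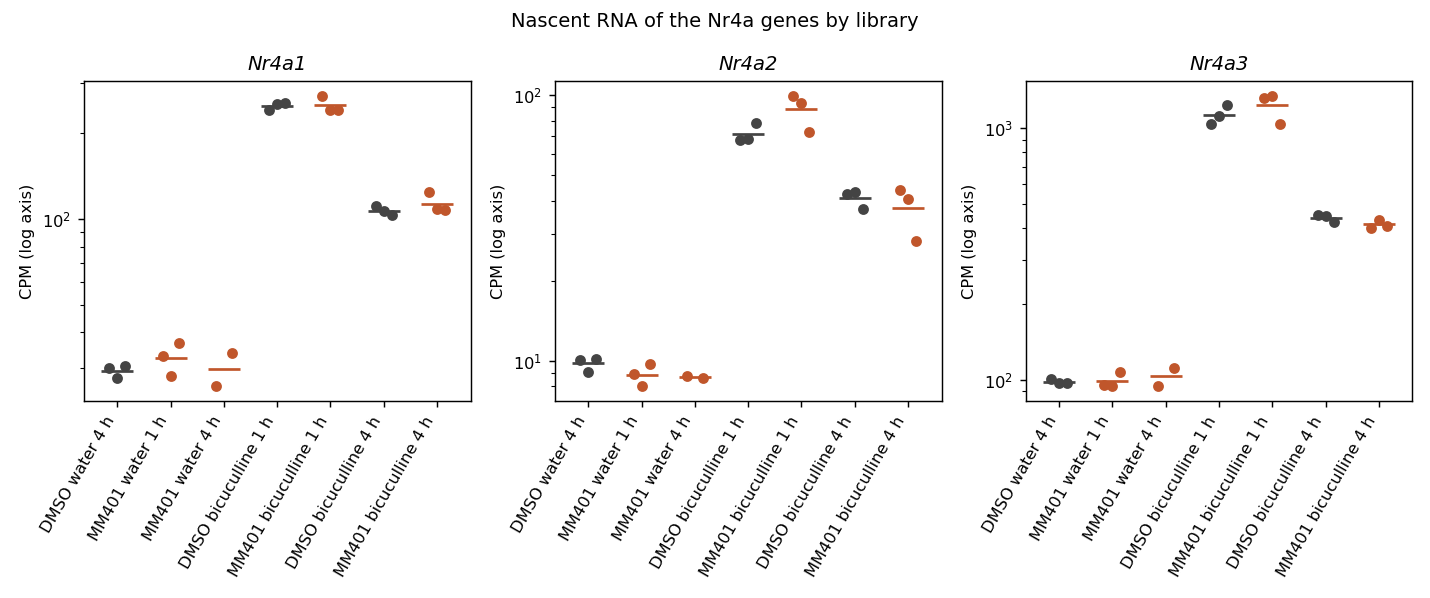
CPM of Nr4a1, Nr4a2 and Nr4a3 (log axis, 1 panel a gene) in 20 libraries of 7 groups; points are libraries, short bars group means, dark grey DMSO and orange MM401. In each panel the libraries fall into 3 tiers that do not overlap, and MM401 points lie among or beside the DMSO points of the same treatment.

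Within a tier all neighbours in the order of group means overlapped in their ranges. For Nr4a1 the means were 251 ± 17.1 CPM (SD, n = 3) in MM401 and 249 ± 7.84 CPM (n = 3) in DMSO after 1 h of bicuculline, and 113 ± 9.51 and 107 ± 3.85 CPM (n = 3 each) after 4 h. The water groups of Nr4a1 followed at 32.6 ± 4.28 CPM (MM401 1 h, n = 3), 29.8 ± 5.60 CPM (MM401 4 h, n = 2) and 29.3 ± 1.54 CPM (DMSO 4 h, n = 3). Nr4a2 had 88.5 ± 14.1 CPM (MM401) and 71.6 ± 5.96 CPM (DMSO) after 1 h, and 41.0 ± 3.16 CPM (DMSO) and 37.5 ± 8.19 CPM (MM401) after 4 h, n = 3 each. These ranges overlapped within each time. The Nr4a2 water groups had 9.77 ± 0.583 CPM (DMSO 4 h, n = 3), 8.87 ± 0.856 CPM (MM401 1 h, n = 3) and 8.70 ± 0.124 CPM (MM401 4 h, n = 2). The first and the last of these did not overlap, though each overlapped the one between them. Nr4a3 had 1232.5 ± 172 CPM (MM401) and 1130.6 ± 102 CPM (DMSO) after 1 h, and 440 ± 14.9 CPM (DMSO) and 414 ± 16.3 CPM (MM401) after 4 h, n = 3 each. Its water groups, at 103 ± 12.03 CPM (MM401 4 h, n = 2), 98.6 ± 7.35 CPM (MM401 1 h, n = 3) and 98.1 ± 2.43 CPM (DMSO 4 h, n = 3), overlapped.

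Because nascent RNA is read along introns too, a long gene collects more reads, and levels between members can be compared only per length. Per kilobase, Nr4a1 had the highest level of the 3 in DMSO with water, 3.69 CPM per kilobase, above 2.38 for Nr4a3 and 0.582 for Nr4a2. These levels lay at the 96.3rd, 90.8th and 48.4th percentile of the genes tested. After 1 h of bicuculline in DMSO the levels per kilobase were 31.4 for Nr4a1, 27.5 for Nr4a3 and 4.27 for Nr4a2, at the 99.9th, 99.8th and 96.3rd percentile. Nr4a2 therefore started near the middle of all genes and ended in their upper range, while Nr4a1 was already among the more transcribed genes with water alone.

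The question of the bicuculline comparisons is how activity changed transcription of each member. All 3 members rose at 1 h in DMSO. Nr4a3 rose most, 11.5-fold (log2 fold change 3.53 ± 0.10 SE, adjusted p = 1.68e-16), and ranked 7 of the 16959 genes by fold. Nr4a1 rose 8.5-fold (3.09 ± 0.098, adjusted p = 2.28e-15, rank 20). Nr4a2 rose 7.34-fold (log2 fold change 2.88 ± 0.15, adjusted p = 6.52e-11, rank 28). The test here and in every later comparison of levels is edgeR's quasi-likelihood test with Benjamini-Hochberg adjustment over all genes tested, called below 0.05. Of all genes tested, 20% were called higher in this comparison and 44.6% in either direction. No library with water reached any library with bicuculline for these genes. The share of all genes tested whose libraries separate in this way was not counted, here or in later comparisons.

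At 4 h in DMSO all 3 members were still higher than with water and nearer to each other. Nr4a3 was 4.48-fold higher (log2 fold change 2.16 ± 0.095, adjusted p = 9.23e-14), Nr4a2 4.2-fold (2.07 ± 0.14, adjusted p = 2.64e-09) and Nr4a1 3.64-fold (1.87 ± 0.094, adjusted p = 2.93e-12). They ranked 78, 90 and 125 by fold, against a background of 23.7% of genes called higher and 49.2% in either direction. All bicuculline libraries stood above all water libraries, which were the same 3 as in the comparison at 1 h.

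Under MM401 the same 3 genes rose at both times. At 1 h, against water at 1 h, Nr4a3 rose 12.5-fold (log2 fold change 3.64 ± 0.10, adjusted p = 9.32e-17, rank 7), Nr4a2 9.97-fold (3.32 ± 0.15, adjusted p = 1.22e-11, rank 10) and Nr4a1 7.71-fold (2.95 ± 0.097, adjusted p = 3.72e-15, rank 21). The background there was 18.1% of genes called higher and 39.9% in either direction. At 4 h, against water at 4 h with n = 2, Nr4a2 was 4.30-fold higher (2.11 ± 0.17, adjusted p = 3.65e-08), Nr4a3 4.02-fold (2.01 ± 0.11, adjusted p = 7.44e-12) and Nr4a1 3.80-fold (log2 fold change 1.93 ± 0.11, adjusted p = 4.09e-11). Genes called higher made up 23.0% of those tested and genes called in either direction 44.6%. No water library reached a bicuculline library in either comparison.

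Water alone changed no member between 1 h and 4 h under MM401 past the threshold, which bears on the DMSO response at 1 h, whose water group is that of 4 h. The log2 fold change, 4 h against 1 h, was -0.13 for Nr4a1 (95% interval -0.35 to 0.092), -0.028 for Nr4a2 (-0.39 to 0.33) and 0.062 for Nr4a3 (-0.15 to 0.28), with adjusted p of 0.799, 0.990 and 0.937 in edgeR's test. In this comparison 147 genes, 0.867% of those tested, were called. That count was 57 or 61 without replicate 2 or 3 of MM401 with water for 1 h, and 14 or 51 without replicate 1 or 2 of MM401 with water for 4 h.

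Transcription of the members came down between 1 h and 4 h of bicuculline, in part. In DMSO the level at 4 h was 38.9% of that at 1 h for Nr4a3 (log2 fold change -1.36 ± 0.093, adjusted p = 3.41e-10 by edgeR), 42.9% for Nr4a1 (-1.22 ± 0.091, adjusted p = 2.19e-09) and 57.2% for Nr4a2 (-0.81 ± 0.13, adjusted p = 0.000137). In this comparison 15.2% of genes were called lower and 34.2% in either direction. Under MM401 the level at 4 h was 33.6% of that at 1 h for Nr4a3 (-1.57 ± 0.093, adjusted p = 7.98e-11), 42.3% for Nr4a2 (-1.24 ± 0.14, adjusted p = 1.70e-06) and 45.1% for Nr4a1 (log2 fold change -1.15 ± 0.091, adjusted p = 6.74e-09). There 16.0% of genes were called lower and 33.6% in either direction. All 3 genes thus fell in both pretreatments, and at 4 h none had returned to the range of the water libraries.

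**Figure D2:**
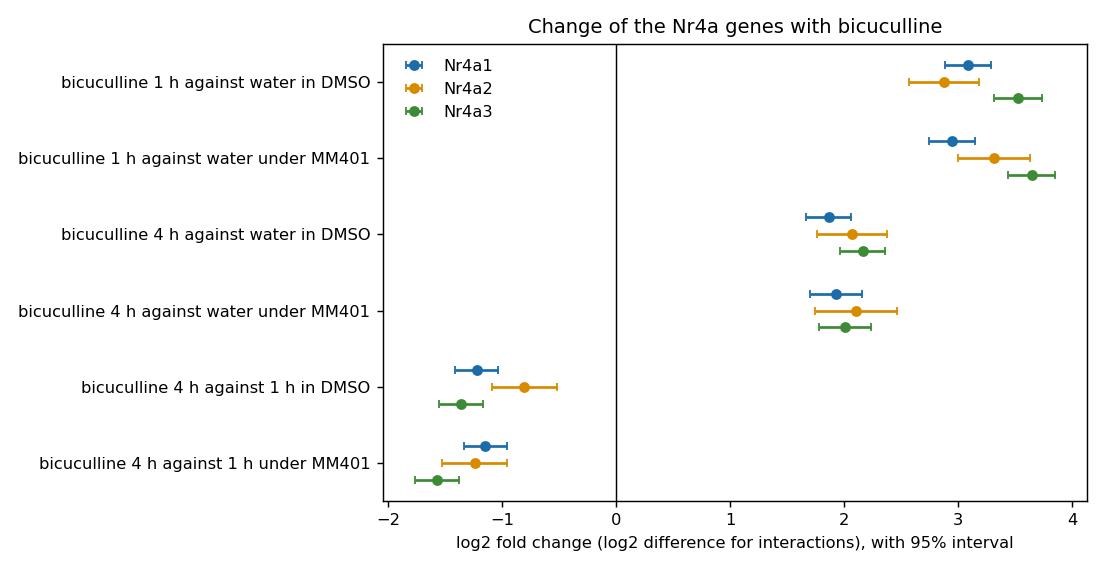
Log2 fold change with its 95% interval for each member in the 6 comparisons of bicuculline with water and of 4 h with 1 h. At 1 h the 3 genes lie between 2.88 and 3.64, at 4 h between 1.87 and 2.16, and the change from 1 h to 4 h is below 0 for all.

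Scaling moved the sizes but no call of a member in these 6 comparisons. With plain library sizes in place of TMM the median log2 fold change of all genes shifted to -0.229 at 1 h and -0.300 at 4 h in DMSO and to -0.214 at 1 h with MM401, and the share of called genes that were higher went from 44.9% to 21.2% at 1 h and from 48.1% to 18.8% at 4 h. Under MM401 that share went from 45.4% to 16.3% at 1 h and from 51.5% to 40.3% at 4 h. For 4 h against 1 h of bicuculline the DMSO share went from 55.7% to 39.2% and the MM401 share from 52.3% to 65.0%. Nr4a1, Nr4a2 and Nr4a3 had log2 fold changes of 2.90, 2.68 and 3.34 with plain library sizes at 1 h in DMSO.

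Ratios between members within a library do not depend on its scaling, and they asked whether the members moved by different amounts. Nr4a3 moved more than either relative in both directions. Its count was 3.35 times that of Nr4a1 in DMSO with water, 4.53 times after 1 h of bicuculline and 4.12 times after 4 h (arithmetic means of the library ratios, n = 3). Under MM401 the ratio was 3.05 with water for 1 h, 3.47 with water for 4 h (n = 2), 4.91 after 1 h of bicuculline and 3.68 after 4 h. From water to 1 h of bicuculline the log2 ratio of Nr4a3 to Nr4a1 rose by 0.56 (0.43 in DMSO, 0.68 under MM401), and from 1 h to 4 h it fell by 0.28 (changes of -0.14 in DMSO and -0.42 under MM401). Both changes had p = 0.005 in an exact two-sided permutation test within pretreatments, the smallest p that 400 arrangements of 12 libraries can give, and 0.01 after Benjamini-Hochberg adjustment over 6 ratio tests.

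Against Nr4a2, the Nr4a3 count was 10.1 times as high in DMSO with water, 15.8 times after 1 h of bicuculline and 10.8 times after 4 h. Under MM401 the ratio was 11.1 with water for 1 h, 11.8 with water for 4 h (n = 2), 14.0 after 1 h of bicuculline and 11.4 after 4 h. Its log2 rose by 0.49 at 1 h (0.65 in DMSO, 0.33 under MM401, exact permutation p = 0.005, adjusted 0.01). From 1 h to 4 h the log2 ratio changed by -0.43 (-0.55 in DMSO, -0.31 under MM401, exact permutation p = 0.02, adjusted 0.03). That last call was lost without replicate 1 of MM401 with bicuculline for 4 h, where the change was -0.36 and the adjusted p 0.0525.

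For Nr4a1 against Nr4a2 no change passed the test. The log2 ratio changed by -0.071 at 1 h (exact permutation p = 0.51, also 0.51 adjusted) and by -0.16 from 1 h to 4 h (p = 0.255, adjusted 0.306). The change at 1 h was -0.12 without replicate 3 and -0.035 without replicate 2 of MM401 with bicuculline for 1 h. The change from 1 h to 4 h was -0.10 without that replicate 3, -0.11 without replicate 2 of MM401 with bicuculline for 4 h, and -0.23 without replicate 3 of the latter group (adjusted p = 0.054 by the exact permutation test). The pretreatments went opposite ways in both: at 1 h the change was 0.22 with DMSO but -0.36 with MM401, and from 1 h to 4 h it was -0.42 with DMSO but 0.10 with MM401. The stratified test averages over those, and the difference between pretreatments in this ratio was not tested.

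**Figure D3:**
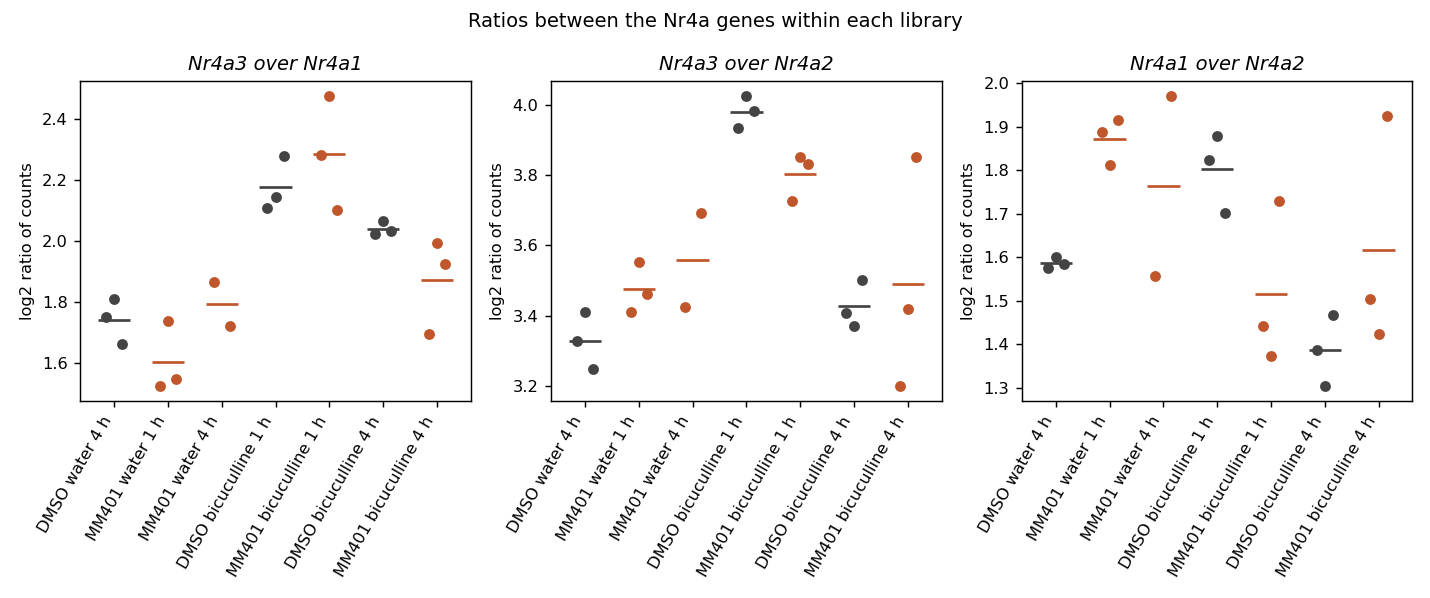
Log2 ratio of counts of Nr4a3 over Nr4a1, Nr4a3 over Nr4a2 and Nr4a1 over Nr4a2 in each of 20 libraries; points are libraries, short bars group means, dark grey DMSO and orange MM401. In the panels with Nr4a3 the group means peak at 1 h of bicuculline in both pretreatments. For Nr4a3 over Nr4a2 under MM401, the highest library at 4 h (3.851) reaches the highest at 1 h (3.850). For Nr4a1 over Nr4a2 the DMSO libraries are higher at 1 h than at 4 h (1.80 against 1.39) while the MM401 libraries are not (1.51 against 1.62).

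MM401 was compared with DMSO to ask whether the compound changed transcription of these genes at rest or under activity. Block of MLL1 in these cultures was not tested, so the comparisons do not show whether its complex is needed. No member passed the test in any comparison of MM401 with DMSO. With water for 4 h the log2 fold change was 0.024 for Nr4a1 (95% interval -0.19 to 0.24, adjusted p = 0.933 by edgeR), -0.17 for Nr4a2 (-0.52 to 0.19, adjusted p = 0.682) and 0.069 for Nr4a3 (-0.14 to 0.28, adjusted p = 0.784), where 0.0826% of genes (14) were called. That count of 14 became 1272 without replicate 1 of DMSO with water, 0 without replicate 2 or 3 of that group, and 6 or 0 without replicate 1 or 2 of MM401 with water for 4 h. For Nr4a2 both MM401 libraries were below all 3 DMSO libraries, and the interval still reaches above 0.

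In bicuculline for 1 h the MM401 cultures had 1.24 times the DMSO level of Nr4a2 (log2 fold change 0.31, 95% interval 0.026 to 0.58, unadjusted p = 0.0339, adjusted p = 0.999 by edgeR). Nr4a1 differed by 0.0095 (-0.18 to 0.19) and Nr4a3 by 0.12 (-0.064 to 0.31) on the log2 scale, both with adjusted p of 0.999. A single gene (0.00590%) was called in that comparison, and 540 had an unadjusted p under 0.05. That count was 0 without replicate 2 of DMSO or replicate 3 of MM401 and 2 without replicate 3 of DMSO with bicuculline for 1 h. At 4 h of bicuculline the differences were 0.084 for Nr4a1 (-0.10 to 0.27), -0.13 for Nr4a2 (-0.41 to 0.16) and -0.088 for Nr4a3 (-0.28 to 0.10), with adjusted p of 0.823, 0.819 and 0.817. No gene was called by edgeR at 4 h of bicuculline (0% of genes), and 1309 had an unadjusted p under 0.05. The ranges of MM401 and DMSO overlapped for all 3 genes at both times of bicuculline.

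Averaged over the 3 conditions, which gives the narrowest interval, MM401 differed from DMSO by 0.039 for Nr4a1 (-0.075 to 0.15), 0.0036 for Nr4a2 (-0.17 to 0.18) and 0.035 for Nr4a3 (-0.079 to 0.15) on the log2 scale. The adjusted p values were 0.990, 0.999 and 0.994 by edgeR, with 0.130% of genes called. These intervals bound a shared shift for each gene, and they do not show that the levels are equal.

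The interactions test whether MM401 changed the response to bicuculline itself. At 4 h the difference between responses was 0.060 for Nr4a1 (95% interval -0.23 to 0.35), 0.037 for Nr4a2 (-0.42 to 0.49) and -0.16 for Nr4a3 (-0.44 to 0.13) on the log2 scale. That of Nr4a3 was -0.27 or -0.043 without replicate 1 or 2 of MM401 with water for 4 h. At 1 h, with both responses against water at 4 h, it was -0.015 for Nr4a1 (-0.30 to 0.27), 0.47 for Nr4a2 (0.019 to 0.92, unadjusted p = 0.0422, adjusted p = 0.614 by edgeR) and 0.055 for Nr4a3 (-0.23 to 0.34). No member passed the test in either. For the change from 1 h to 4 h of bicuculline the difference was 0.075 for Nr4a1 (-0.19 to 0.34), -0.43 for Nr4a2 (-0.83 to -0.036, unadjusted p = 0.0345, adjusted p = 0.702 by edgeR) and -0.21 for Nr4a3 (-0.48 to 0.055, adjusted p = 0.719). Nr4a2 is thus the member whose unadjusted intervals leave 0 out at 1 h and between times, and neither passes after adjustment. Without replicate 3 of MM401 with bicuculline for 4 h the value of -0.43 was -0.26. The difference in Nr4a1 was 0.0026 without replicate 1 of that group and 0.13 without replicate 1 of MM401 with bicuculline for 1 h, and 0.24 with plain library sizes. That in Nr4a3 was -0.046 with plain library sizes. The quasi-likelihood test called 0% of genes in each of the 3 interactions, with 2552 (4 h), 1326 (1 h) and 1195 (time) at an unadjusted p under 0.05, while DESeq2 called 472, 5 and 0. Without replicate 1 of DMSO with water the edgeR counts were 1551 at 4 h and 97 at 1 h, and without replicate 1 of MM401 with water for 4 h they were 2 and 1.

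**Figure D4:**
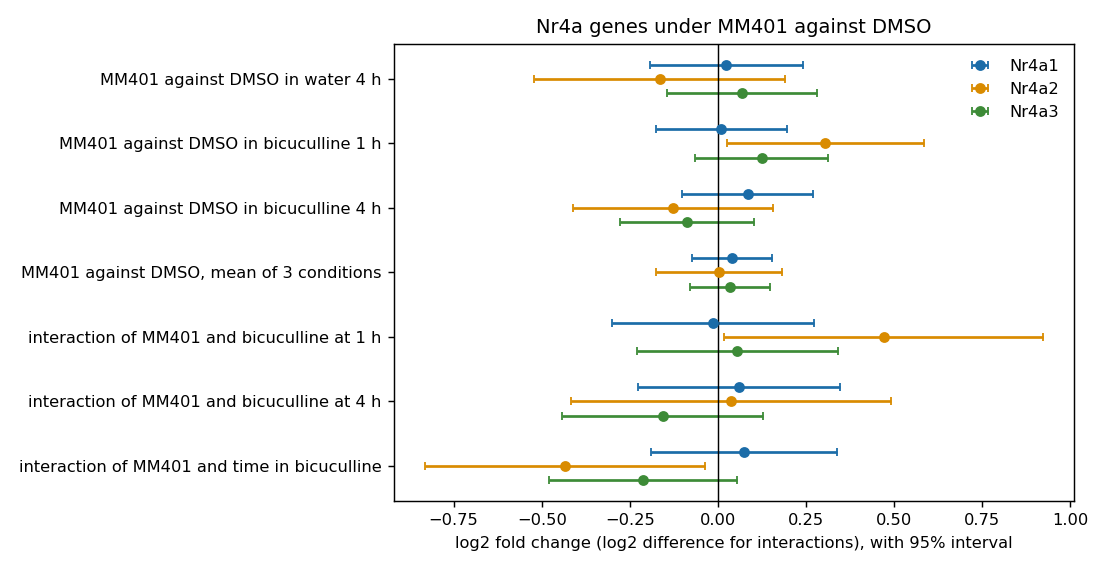
Log2 difference of MM401 from DMSO with its 95% interval for each member, in 3 treatments, as their mean, and as 3 interactions. All intervals include 0 except those of Nr4a2 in bicuculline 1 h (0.31), in the interaction at 1 h (0.47) and in the interaction with time (-0.43), none of which passes after adjustment.

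The genes whose log2 CPM followed a member most closely over the 20 libraries were found by Pearson's r among 15142 genes, predicted gene models and small RNA genes left out. For Nr4a1 they were Fosb (r = 0.999), a subunit of AP-1, then Nr4a3 (0.996), the imprinted genes Peg10 (0.994) and Mest (0.994), and the chaperone gene Hspa8 (0.991). For Nr4a2 they were the imprinted genes Zdbf2 (0.996), Peg10 (0.996) and Mest (0.995), the Y-linked helicase gene Ddx3y (0.994) and Fbxo33 (0.992). For Nr4a3 they were Mest (0.997), Fosb (0.996), Nr4a1 (0.996), Arl5b (0.995) and Cxadr (0.995). Only Mest stood among the 5 closest genes of all 3 members. These libraries share treatments and the 3 tiers, so r near 1 describes mostly the group means.

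Among the members themselves r was 0.996 between Nr4a1 and Nr4a3, 0.991 between Nr4a2 and Nr4a3 and 0.989 between Nr4a1 and Nr4a2 over 20 libraries. With each group's mean removed, r was 0.539, 0.581 and 0.530, so libraries of a group that were high in 1 member tended to be high in the others (20 libraries, each of which also shares 1 scaling factor and depth across its genes). When the 7 group means were used instead, 2, 3 and 2 of the 5 genes closest to Nr4a1, Nr4a2 and Nr4a3 stayed. With the shallow library included none of the 5 stayed for any member.

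The rapid activity-induced genes, a list of 20 that neurons transcribe early after stimulation, give the setting of the members. All 20 were called higher at 1 h in DMSO, with a median log2 fold change of 2.52 against -0.038 over all genes tested (20% called higher, 24.5% lower). The 4 with the largest change were Fosb (5.77), the neuron-specific factor Npas4 (4.43), Klf4 (3.51) and Egr4 (3.42), and the 3 members, at 2.88 to 3.53, lay above the median of this list and below Npas4. At 4 h 15 were called higher and 2 lower, with a median of 1.16 against -0.024 over all genes (23.7% called higher, 25.5% lower). Fosb (3.61), Npas4 (3.44), Atf3 (2.92) and Klf4 (2.80) led there. The 2 called lower than with water were Egr1 (-0.60, adjusted p = 4.35e-05 by edgeR) and Egr3 (-1.07, adjusted p = 1.22e-08), named after their values were seen. Between 1 h and 4 h in DMSO 18 of 20 fell (15.2% of all genes did). Under MM401 the counts against water were 20 higher at 1 h (18.1% of all genes), and 17 higher and 2 lower at 4 h (23.0% and 21.7% of all genes).

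Among 17 factors and kinases known to act upstream of the Nr4a genes, changes were smaller and mixed. At 1 h in DMSO 6 were called higher and 4 lower (20% and 24.5% of all genes), with a median log2 fold change of 0.091 against -0.038 over all genes. Crem, which encodes CRE-binding activators and the repressor ICER, rose most, from 54.9 ± 0.496 to 132 ± 10.7 CPM (SD, n = 3 each, log2 fold change 1.26 ± 0.065, adjusted p = 9.51e-13 by edgeR). Srf, the serum response factor, rose by 0.80 ± 0.11 (adjusted p = 6.52e-06), Mef2c, a factor that calcium signals activate, by 0.59 ± 0.088, and Crtc2, a CREB coactivator, fell by 0.39 ± 0.094. At 4 h 8 were called higher and 4 lower (23.7% and 25.5% of all genes), with a median of 0.056 against -0.024. Crem (1.17), the kinase gene Rps6ka5 (0.73) and Mef2c (0.65) were higher and the CREB coactivator gene Crtc1 (-0.53) lower. Srf fell between 1 h and 4 h (log2 fold change -1.22 ± 0.12, adjusted p = 3.45e-08), while Crem did not pass the test (-0.096 ± 0.063, adjusted p = 0.265). With plain library sizes the counts were 3 higher and 7 lower at 1 h and 3 and 9 at 4 h, and Mef2d at 1 h and Creb1 and Mef2a at 4 h, called higher in the first place, were then at or below -0.0082. Under MM401 7 were called higher and 3 lower at 1 h (18.1% and 21.8% of all genes, median 0.14). At 4 h under MM401 5 were higher and 6 lower (23.0% and 21.7%), with a median of -0.027 against 0.016 over all genes. With plain library sizes those MM401 counts were 4 higher and 8 lower at 1 h and 3 and 8 at 4 h, so lower calls outnumbered higher ones at both times. The calls of Mef2c were lost with all 21 libraries (0.61 at 1 h and 0.63 at 4 h).

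Binding partners and corepressors of the NR4A proteins (6 genes) also went both ways. At 1 h in DMSO Rxrg, a retinoid X receptor, rose from 30.3 ± 0.193 to 47.5 ± 2.13 CPM (SD, n = 3 each, log2 fold change 0.65 ± 0.072, adjusted p = 2.70e-07 by edgeR), while its relative Rxrb (-0.35), the corepressor gene Rcor1 (-0.27) and the demethylase gene Kdm1a (-0.19) fell (1 of 6 called higher and 3 lower, against 20% and 24.5% of all genes). The calls of Rxrb (-0.33), Rcor1 (-0.24) and Kdm1a (-0.16) were lost with all 21 libraries. At 4 h Rcor1 was higher (0.53 ± 0.071, adjusted p = 2.34e-06) and Rxrb lower (-0.44). Kdm1a was higher at 4 h (0.18) but stood at -0.092 with plain library sizes. Rxra and Sfpq passed the test at neither time. Against water of the same time, at 1 h under MM401, Rcor1 did not pass the test (0.034 ± 0.072, adjusted p = 0.744), with 46.2 ± 1.88 CPM in water and 47.4 ± 4.65 CPM in bicuculline (SD, n = 3 each). Rxrg rose there by 0.45 ± 0.072 (adjusted p = 3.85e-05), while Rxrb (-0.47 ± 0.12, adjusted p = 0.00342) and Kdm1a (-0.19 ± 0.047, adjusted p = 0.00251) fell. At 4 h under MM401 Rcor1 was higher (0.41) and Rxrb (-0.37) and Rxrg (-0.37) lower.

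Of 46 other nuclear receptor genes, 38 were tested, and the 3 retinoid X receptors are counted here again. At 1 h in DMSO 12 were called higher and 7 lower (20% and 24.5% of all genes), with a median log2 fold change of 0.11, and none reached the change of any Nr4a gene. The largest changes were in Rorb (1.08 ± 0.073), a receptor of upper cortical layers, in Nr5a2 (0.93), in Nr2f6 (-0.81) and in the vitamin D receptor gene Vdr (0.76). The Vdr call was lost with plain library sizes (0.57) and that of Nr5a2 with all 21 libraries (0.95). The water group of that comparison is of 4 h, and with water under MM401 Rorb itself had 498 ± 45.7 CPM (SD, n = 3) at 1 h and 308 ± 2.01 CPM (n = 2) at 4 h (log2 fold change -0.70 ± 0.082, adjusted p = 9.54e-05 by edgeR). Against water of the same time, at 1 h under MM401, Rorb rose by 0.57 ± 0.072 (adjusted p = 1.69e-06) and Nr2f6 fell by 0.64 ± 0.17 (adjusted p = 0.00483). There Nr5a2 stood at 0.33 ± 0.25 (adjusted p = 0.310) and Vdr at 0.60 ± 0.27 (adjusted p = 0.0848), neither past the threshold. At 4 h 15 were called higher and 6 lower (23.7% and 25.5% of all genes), with a median of 0.20, led by the estrogen receptor gene Esr1 (1.501 ± 0.11, adjusted p = 1.23e-09), Esrrb (1.15) and Nr2f6 (-0.85). Esr1 went from 13.1 ± 2.64 CPM with water to 19.0 ± 2.11 at 1 h and 36.9 ± 3.38 at 4 h (SD, n = 3 each). Its whole-gene count thus went on rising while those of the Nr4a genes fell. Esr1 is far longer than the members (13.1 CPM with water is 0.0333 CPM per kilobase). The part of gene length in this time course was not tested. Esr1 rose between 1 h and 4 h by 0.96 ± 0.11 (log2, adjusted p = 1.03e-06). With plain library sizes 8 were called higher and 11 lower at 1 h, and 5 and 10 at 4 h. In that setting Nr2f1 at 1 h and Ppard and Nr3c2 at 4 h, called higher in the first place, were below 0. Under MM401 12 receptors were called higher and 6 lower at 1 h (18.1% and 21.8% of all genes) and 13 and 5 at 4 h (23.0% and 21.7%), against 5 and 10 at 1 h and 9 and 8 at 4 h with plain library sizes.

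Genes reported elsewhere as NR4A targets (13) were mostly higher at 1 h. In DMSO at 1 h 10 were called higher and none lower (20% and 24.5% of all genes), with a median log2 fold change of 0.77. Fosl2, an AP-1 subunit, rose by 2.62 ± 0.10, from 41.8 ± 2.98 to 258 ± 26.0 CPM (SD, n = 3 each). Bdnf, a neurotrophin, rose by 2.18 ± 0.10, from 221 ± 23.9 to 1000 ± 27.8 CPM. Dlk1 (1.75 ± 0.28) and Th (1.69 ± 0.20), the gene of tyrosine hydroxylase in dopamine synthesis, rose from low levels of 0.340 and 0.473 CPM with water for 4 h. Against water of the same time, at 1 h under MM401, Th rose by 1.09 ± 0.19 (adjusted p = 0.000115 by edgeR) and Dlk1 by 1.15 ± 0.27 (adjusted p = 0.00145). Water alone under MM401 gave Th 0.717 CPM at 1 h and 0.483 CPM at 4 h (log2 fold change -0.57 ± 0.25, adjusted p = 0.428). At 4 h 7 were called higher and none lower (23.7% and 25.5% of all genes), with a median of 0.61, and 5 higher and 3 lower with plain library sizes. Under MM401 9 were called higher and none lower at 1 h (18.1% and 21.8% of all genes), and 6 higher and 1 lower at 4 h (23.0% and 21.7%), the latter Ptpru (-0.32 ± 0.11, adjusted p = 0.0167 by edgeR), named after its value was seen. At 4 h in DMSO Bdnf (2.66), Klhl1 (2.10), Fosl2 (1.87) and the vesicular monoamine transporter gene Slc18a2 (1.48) led. Between 1 h and 4 h in DMSO 3 of the 13 were called higher and 6 lower (19.1% and 15.2% of all genes). Bdnf (0.48, adjusted p = 0.000575 by edgeR) and Klhl1 (1.65, adjusted p = 5.48e-08) were among the higher, against the direction of the Nr4a genes, and Fosl2 (-0.76) and Th (-1.08) among the lower. Klhl1 is far longer than the members (20.3 CPM in DMSO with water is 0.0490 CPM per kilobase), and the part of gene length was not tested.

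In the comparisons of MM401 with DMSO no gene of these 5 lists was called, in water, in bicuculline for 1 h or 4 h, or on average over them. The summed level of the neuron markers moved with bicuculline in both pretreatments. It was 28.4 to 32.6 CPM per kilobase in DMSO with water, 42.2 to 46.4 after 1 h and 49.6 to 51.6 after 4 h. All 8 were detected and moved unequally at 1 h in DMSO: Snap25 (1.03), Gad1 (0.87) and Gad2 (0.54) were called higher (20% of all genes), Slc17a7 (-0.33) and Tubb3 (-0.31) lower (24.5%), and the other 3 were not called. In DMSO the astrocyte markers, 14.3 to 23.9 with water, 19.6 to 23.8 at 1 h and 19.3 to 22.8 at 4 h, overlapped. Oligodendrocyte lineage markers had 10.98 to 15.1, 10.2 to 12.5 and 12.3 to 14.8, and microglia markers 2.38 to 2.64, 1.86 to 2.45 and 2.69 to 2.99, so microglia markers at 4 h did not overlap water. In DMSO 2 astrocyte markers of 6 were called higher and 1 lower at 1 h and none at 4 h, and 2 and 3 of 6 oligodendrocyte lineage markers were called higher at 1 h and 4 h (20% and 23.7% of all genes). Under MM401 neuron markers had 29.8 to 30.7 with water and 42.5 to 49.99 with bicuculline at 1 h, and 32.3 to 32.8 and 44.4 to 48.7 at 4 h. Astrocyte markers had 14.5 to 21.9 with water and 22.7 to 26.5 with bicuculline at 1 h, and 13.5 to 17.2 and 18.3 to 22.9 at 4 h, with no overlap at either time, and 3 of 6 were called higher at each (18.1% of all genes at 1 h and 23.0% at 4 h). Oligodendrocyte lineage markers had 8.25 to 9.13 and 10.3 to 12.5 at 1 h, and 9.55 to 10.98 and 14.2 to 16.1 at 4 h, again with no overlap, with 2 and 3 of 6 called higher, the same counts as in DMSO. Microglia markers overlapped at 1 h (2.21 to 2.67 and 2.46 to 2.67) but not at 4 h (1.98 to 2.47 and 3.07 to 3.34), where 3 of the 5 tested were called higher (1 of 5 at 4 h in DMSO) and none at 1 h. Whether these shifts differed between pretreatments was not tested for the sums, and no marker of these lists was called in an interaction of MM401 and bicuculline. The part of these shifts in the changes of the Nr4a genes was not tested.

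**Figure D5:**
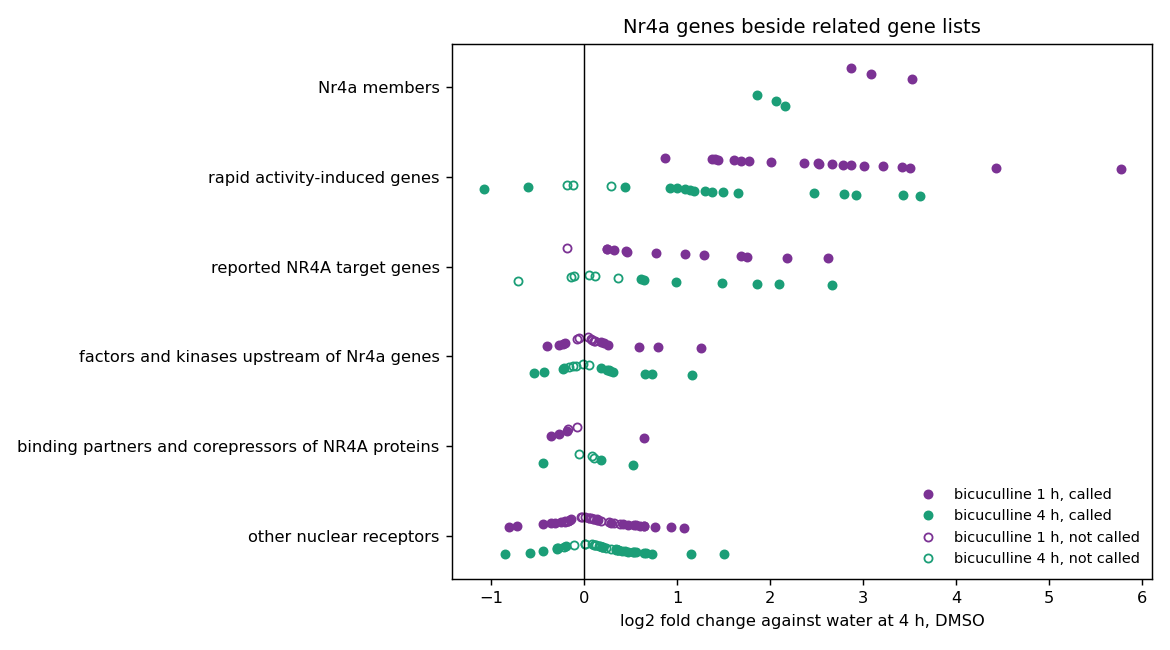
Log2 fold change of bicuculline 1 h and 4 h against water in DMSO for the Nr4a genes and 5 lists; each point is a gene, filled where called. The Nr4a genes lie right of every gene of the partner, upstream and nuclear receptor lists at both times, and inside the range of the rapid activity-induced genes.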

How the data were processed

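The values were whole-number counts per gene, deposited as one table of 24984 genes and 21 libraries. Per the submitters' processing notes the tools were Bowtie2, UMI-tools, featureCounts, deepTools and DESeq2 with build mm10. Their versions and the counting of strand are not given in the sources used here. Counts cover whole genes, introns included. The members and gene lists were chosen with earlier results of these data known.

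Counts of 20 libraries, with totals of 49886348 to 87939384, were fitted as 7 groups in edgeR 4.0.16 (R 4.3.3, limma 3.58.1) with TMM scaling, filterByExpr (minimum count 10, minimum total 15) and robust quasi-likelihood tests over 14 contrasts, checked on simulated counts. The common biological coefficient of variation was 8.77%. Errors of fold changes are SE, those of levels SD. Replicates came from cultures of mixed sex, and whether each was a separate dissection is not stated, so p-values measure the spread between these libraries. Ratios between members used exact permutation tests.

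Same-numbered libraries were checked for pairing: of 57 correlations of their deviations, 25 were over 0.1 (median 0.0898, range -0.229 to 0.278), and of the comparisons used only MM401 against DMSO in bicuculline for 4 h had all 3 over 0.1 (0.150, 0.107 and 0.172). Alternatives were DESeq2 1.42.0, plain library sizes, RLE, no filter, all 21 libraries, a replicate block and leaving out each library. Named genes were the members, up to 4 called genes of each list with the largest change at each time, and the 5 genes most like each member; 1 gene the rule names is not reported here. Promoter sequences came from RefSeq (GRCm38.p6).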

Additional observations from a re-analysis of the deposited data

How the results depend on the processing

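The 18 changes of Nr4a genes in the bicuculline comparisons kept direction and call in all 213 alternatives run for them, with a largest adjusted p of 0.0014. Of the alternatives of the ratio tests 71 kept the call and 1 did not. The log2 ratio of Nr4a3 to Nr4a2 from 1 h to 4 h ran from -0.52 to -0.36 when 1 library was left out, and its call was lost without replicate 1 of MM401 with bicuculline for 4 h. In the comparisons that called no member, 46 alternatives changed a sign, 317 did not, and none made a call. Of 63 group levels under other scaling or filters, 9 moved by more than the SD.

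With the replicate number as a block, no call of a member changed. The mean over 3 conditions of MM401 against DMSO became -0.017 for Nr4a2, and 4 genes were called in bicuculline for 1 h (1 without the block). In bicuculline for 4 h, where the numbers pair, Nr4a1 stood at 0.083, Nr4a2 at -0.14 and Nr4a3 at -0.088 with the block.

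With plain library sizes MM401 against DMSO gave -0.064 (Nr4a1) and -0.018 (Nr4a3) in water for 4 h, -0.041 (Nr4a1) in bicuculline for 1 h, 0.023 (Nr4a3) in bicuculline for 4 h and -0.0095 (Nr4a2) on average. The interactions gave 0.041 (Nr4a3, 4 h) and 0.023 (Nr4a1, 1 h). Genes called numbered 4 in water for 4 h (14 with TMM) and 6 on average (22).

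With all 21 libraries MM401 against DMSO gave -0.030 (Nr4a1) and -0.064 (Nr4a3) in water for 4 h, -0.0064 (Nr4a1) in bicuculline for 1 h, and -0.0083 (Nr4a2) and -0.014 (Nr4a3) on average. Nr4a3 gave -0.074 for water at 4 h against 1 h, and Nr4a1 0.024 in the interaction at 1 h. Genes called numbered 3745 (5805 with 20 libraries) and 3646 (5691) for 4 h against 1 h of bicuculline in DMSO and MM401, 0 in water for 4 h, 2 on average and 19 (147) for water at 4 h against 1 h.

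DESeq2 called 166 genes for MM401 in water for 4 h, 13 in bicuculline for 1 h (1), 39 on average, 265 for water at 4 h against 1 h, 472 in the interaction at 4 h and 5 at 1 h (0 each).

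Leaving out 1 library, genes called ran from 0 to 1272 (MM401 in water for 4 h), 0 to 2 (bicuculline for 1 h), 9 to 44 (average), 14 to 140 (water 4 h against 1 h), 0 to 1551 (interaction at 4 h) and 0 to 97 (at 1 h). Nr4a1 ran from -0.17 to 0.20 (water 4 h), -0.048 to 0.036 (bicuculline 1 h), 0.012 to 0.12 (bicuculline 4 h), -0.031 to 0.094 (average), -0.32 to 0.053 (water 4 h against 1 h), -0.12 to 0.25 (interaction at 4 h), -0.21 to 0.17 (at 1 h) and 0.0026 to 0.13 (with time). Nr4a2 ran from -0.26 to 0.041 (bicuculline 4 h), -0.039 to 0.060 (average), -0.098 to 0.046 (water 4 h against 1 h), -0.091 to 0.21 (interaction at 4 h) and -0.56 to -0.26 (interaction with time). The log2 ratio of Nr4a1 to Nr4a2 ran from -0.12 to -0.035 at 1 h and from -0.23 to -0.10 from 1 h to 4 h. Nr4a3 ran from -0.045 to 0.18 (water 4 h), 0.056 to 0.22 (bicuculline 1 h), -0.27 to -0.043 (interaction at 4 h), -0.0077 to 0.069 (average), -0.051 to 0.18 (water 4 h against 1 h), -0.073 to 0.16 (interaction at 1 h) and -0.31 to -0.14 (with time). Leaving out a library of MM401 with water for 4 h leaves 1, assumed to vary like the other groups. The causes were not tested. Depth was not limiting for the members except in the shallow library.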

Other observations

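The library left out, the third of MM401 with water for 4 h, held 316741 counts. It had 0 counts of Nr4a1, where the mean level of the other libraries of its group would give 9.45, and 0 of Nr4a2, where it would give 2.76. For either gene the one-sided limit of 3 counts that a count of 0 allows corresponds to 9.47 CPM, and the two-sided 95% limit is 3.69 counts. Of Nr4a3 it had 12 counts (exact Poisson 95% interval 6.2 to 21, counting error only) where 32.6 would match the others. That is 37.9 CPM of its own total, without TMM scaling, against 98.2 and 116 in the other libraries. By counting error alone Nr4a1 and Nr4a3 were below the level of the other libraries of that group, and for Nr4a2 the depth cannot show a difference. Spread between libraries was not allowed for. The counts at the mean level also come from TMM-scaled CPM and the unscaled total of this library.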
